A study of Mus musculus with 16 samples.

Results

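Tinf2 encodes TIN2, the bridging protein of shelterin, the complex that caps the ends of chromosomes. It is described here with the other shelterin genes Terf1, Terf2, Terf2ip, Acd and Pot1a and with Gmpr2, a gene on the opposite strand whose annotation overlaps that of Tinf2. These 7 genes are taken from the 17097 genes measured in mouse striatum. Tinf2 was chosen for its change in captured astrocyte RNA after clozapine N-oxide (CNO), a ligand made to act on engineered receptors. The shelterin genes were added as its partners and Gmpr2 for its overlap.

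The study concerns activation of Gi signalling in striatal astrocytes. The 16 libraries form 4 groups of 4, called CNO IP and vehicle IP for captured RNA and CNO input and vehicle input for tissue RNA. All mice were male C57BL/6J mice labelled wild type and aged 63 days, and the whole striatum was taken 2 h after an injection of CNO at 1 mg/kg or of vehicle. Each mouse gave 1 immunoprecipitate (IP) library, made from ribosomes captured through a hemagglutinin tag, and 1 input library, made from the lysate of the tissue. The labels name neither the designer receptor nor the virus or promoter that brought receptor and tag into the cells, and no group is labelled as given CNO without a receptor. The titles carry 8 mouse codes, 4 per injection, although the series text speaks of 4 mice; should the codes not stand for separate animals, the p-values would describe these samples alone. Replicates are numbered 2 to 5, as in the titles.

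Values are CPM, the reads of a gene per M (mega) of the normalized size of its library, back-transformed from the authors' log2 CPM. Every group mean is given with its SD over 4 libraries. IP libraries held 52.1 to 61.5 M reads in genes and input libraries 32.8 to 40.3 M. The normalized size, solved from the values, was 0.88 to 0.932 of these reads in IP libraries and 1.08 to 1.14 in input libraries. Ratios of IP to input depend on this scaling. A gene was called when its p from limma, adjusted after Benjamini and Hochberg for all genes tested, was under 0.05. The astrocyte label of the capture was checked on 10 astrocyte markers: all 10 were higher in vehicle IP than in vehicle input, with a median log2 ratio of 2.96. All 10 markers of medium spiny neurons, all 8 of microglia and all 6 of endothelium were lower (medians -1.63, -5.11 and -3.10), while 5 of 6 interneuron, 4 of 6 oligodendrocyte and 4 of 4 ependymal markers were higher, beside 37.7% of all genes called higher and 37.2% called lower. The IP thus held more astrocyte RNA than the input, with RNA of other cells beside it.

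Shelterin sits on the repeats at chromosome ends and keeps them from being read as DNA breaks. TRF1 and TRF2, the products of Terf1 and Terf2, bind the double-stranded repeats, and RAP1, the product of Terf2ip, sits on TRF2. TIN2 holds TRF1 and TRF2 together and recruits TPP1, the product of Acd, which in turn carries the single-strand binding POT1 proteins and brings in telomerase. Mice have 2 POT1 genes, Pot1a and Pot1b. Shelterin proteins are present in nearly all cell types, dividing or not.

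Tinf2 was low in both kinds of RNA from vehicle mice and high in both kinds from CNO mice. In CNO IP it had 506, 561, 482 and 535 CPM in replicates 2 to 5, against 11.5, 9.93, 11.6 and 13.9 CPM in vehicle IP. In CNO input it had 84.2, 99.8, 100 and 98.6 CPM, against 10.7, 11.3, 10.2 and 11.4 CPM in vehicle input. The vehicle libraries of both kinds of RNA overlapped. These values rest on 22499 to 28587 reads in CNO IP, 546 to 755 in vehicle IP, 3153 to 4389 in CNO input and 437 to 491 in vehicle input.

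The group means were 521 ± 34.1 CPM in CNO IP and 11.7 ± 1.63 CPM in vehicle IP, a log2 change of 5.48 (SE 0.10) or 44.6-fold. This difference chose the gene, so it is a description with no test; by size it was number 13 of the 15602 genes tested in IP. The input libraries do not enter that difference, but they come from the striatum of the same mice. Earlier results of these data were also known at the choice, so the test in input is not independent of it. There Tinf2 averaged 95.7 ± 7.71 CPM in CNO and 10.9 ± 0.546 CPM in vehicle, a log2 change of 3.13 (SE 0.07, 95% interval 2.97 to 3.29), or 8.77-fold. It rose (limma, adjusted p = 1.13e-08), with all 4 CNO input libraries above all 4 vehicle input libraries, as for 3.22% of the genes tested. Of 15825 genes tested in input it had the smallest p and was number 11 by size. The input mixes RNA of all cells of the striatum, so a larger number of cells with the transcript and more transcript per cell cannot be told apart in either kind of RNA.

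Tinf2 lies at chr14:55674689-55681820 on the minus strand (mm10, GENCODE M21). The sequence around its start is shown because it holds a single match to the full cAMP response element and further matches to its core. The element is the site bound by CREB family factors, whose activity follows cAMP. In the sequence the capitals mark the element TGACGTCA and its core TGACG on either strand. It is written 5′ to 3′ on the strand of the gene, from 150 bases before the RefSeq start to 10 bases from it on (GRCm38.p6, chr14:55681808-55681967). The same stretch of Pot1a (chr6:25809209-25809368, minus strand), the other member with the full element, follows for comparison.

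Tinf2: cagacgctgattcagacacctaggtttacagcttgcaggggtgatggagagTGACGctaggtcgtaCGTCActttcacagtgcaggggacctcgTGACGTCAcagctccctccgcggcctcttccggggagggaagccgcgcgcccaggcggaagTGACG

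Pot1a: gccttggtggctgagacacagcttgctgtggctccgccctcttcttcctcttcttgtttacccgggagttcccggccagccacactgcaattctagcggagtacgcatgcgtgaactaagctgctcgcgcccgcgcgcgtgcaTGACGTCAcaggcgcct

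Start windows of 300 bases, 250 before the RefSeq start and 50 from it on, were available for 6 of the 7 members and were searched on both strands for 9 motifs. The Tinf2 window held the full element once, 56 to 49 bases before the start, and 5 matches to TGACG: a pair inside the full element, 1 at -99 to -95, 1 on the other strand at -84 to -80 and 1 at +6 to +10. It also held TGANTCA, the AP-1 site, at -143 to -137. Of 32851 such windows in the RefSeq table, 1.79% held TGACGTCA, 20.8% held TGACG and 7.81% held TGANTCA; 18 windows, or 0.0548%, held at least as many core matches as Tinf2, a count looked up after the value of Tinf2 was seen.

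Among the other members, only the Pot1a window held TGACGTCA, across the start from -7 to +1, with a pair of core matches inside it. Pot1a also held 1 GC box, GGGCGG, which 35.7% of all windows hold. The Terf2 window held 1 GC box and 1 CCAAT, the Terf2ip window 1 GC box and the Acd window 2 CCAAT, a motif in 37.4% of windows. No match was found in the Gmpr2 window for any motif, and none in any of the 6 windows for AAAGGTCA (NR4A, 1.51% of windows), TTCNNGAA (heat shock, 8.52%), CACGTG (E-box, 7.15%) or TATAAA (13.6%). Pot1a and Tinf2 share the letters of the full element at different distances from the start, and their log2 changes in CNO input were -0.06 and 3.13. A part of the element in either value was not tested. A match of letters is not shown to be a bound site.

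**Figure D1:**
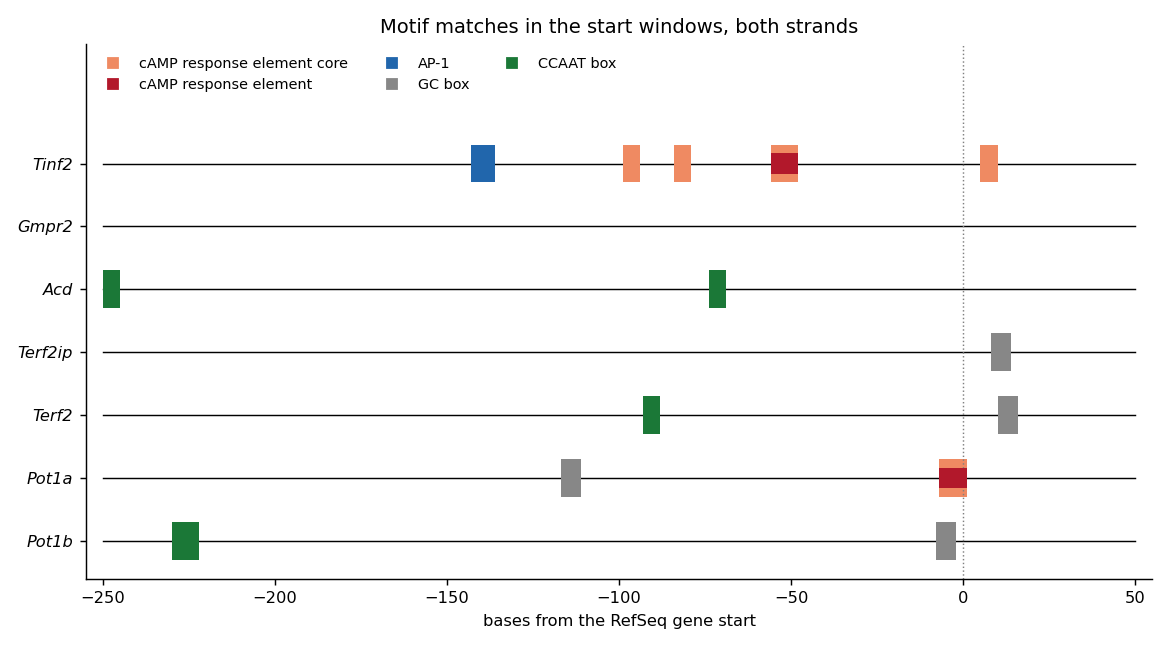
Motif matches in the start windows of 6 members and of Pot1b, in bases from the RefSeq start (dotted line), with matches on either strand drawn as boxes; the first listed window is drawn where a gene has 2. Tinf2 carries the full cAMP response element at -56 to -49 and core matches on both sides of it, Pot1a carries the full element across its start, and the Gmpr2 window is empty.

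Gmpr2, which encodes a guanosine monophosphate reductase of purine metabolism, lies at chr14:55671941-55679200 on the plus strand, tail to tail with Tinf2. The genes overlap over 4512 bases, of which 1540 are exonic in both, 31.2% of the exon length of Tinf2 and 39.2% of that of Gmpr2. The sources used here do not say whether the authors' counting used strand, so reads from the shared exons could count for either gene or for neither. Gmpr2 had 16.6, 18.5, 18.9 and 18.3 CPM in CNO IP, against 19.4, 17.4, 18.3 and 20.3 CPM in vehicle IP. In CNO input it had 17.1, 22.1, 21.4 and 20.2 CPM, against 18.2, 21.6, 20.4 and 21.0 CPM in vehicle input. The groups overlapped in both kinds of RNA. The log2 change was -0.06 (SE 0.07) in IP and -0.01 (SE 0.09, 95% interval -0.22 to 0.19; limma, adjusted p = 0.983) in input, a difference smaller than the spread of the libraries in both.

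**Figure D2:**
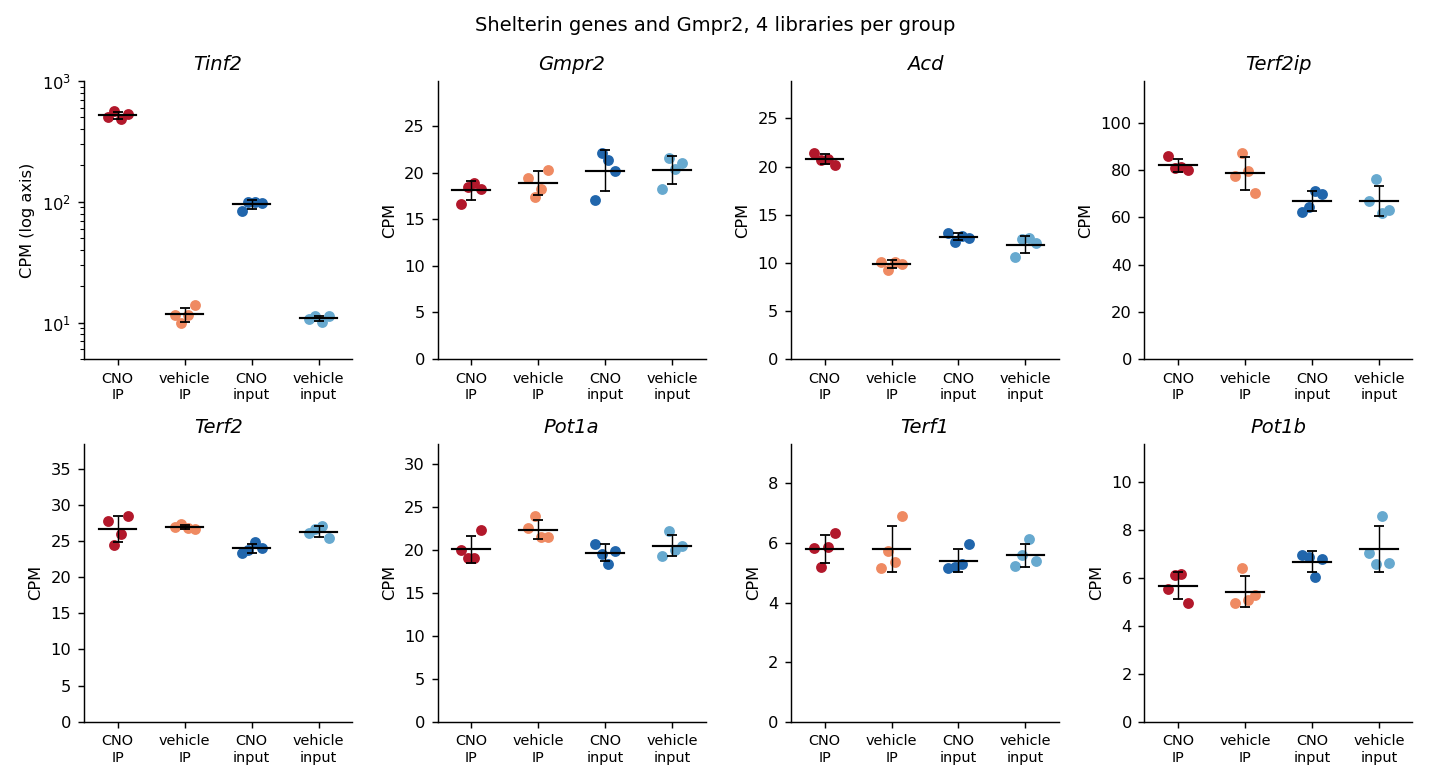
CPM of the 7 members and of Pot1b in each library (points), with the mean and SD of 4 libraries per group (lines); the Tinf2 panel has a log axis and the others start at 0. Tinf2 stands at 482 to 561 CPM in CNO IP and 84.2 to 100 CPM in CNO input. In vehicle IP it stands at 9.93 to 13.9 CPM and in vehicle input at 10.2 to 11.4 CPM. Acd stands at 20.2 to 21.4 CPM in CNO IP and 9.3 to 10.1 CPM in vehicle IP.

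The genes of the double-strand binding proteins were not called after CNO. Terf1 (chr1:15805646-15844052, plus strand) had 5.84, 5.18, 5.86 and 6.32 CPM in CNO IP and 5.17, 5.73, 5.36 and 6.91 CPM in vehicle IP, a log2 change of 0.01 (SE 0.11). In input it had 5.16, 5.20, 5.30 and 5.98 CPM with CNO and 5.24, 5.58, 6.12 and 5.40 CPM with vehicle, a log2 change of -0.05 (SE 0.11, 95% interval -0.28 to 0.19; limma, adjusted p = 0.946). Terf1 groups overlapped throughout, and it was among the lowest members. Terf2 (chr8:107069400-107096547, minus strand) had 27.8, 24.5, 26.0 and 28.5 CPM in CNO IP and 27.0, 27.3, 26.8 and 26.7 CPM in vehicle IP, with a log2 change of -0.02 (SE 0.06). In input Terf2 had 23.4, 23.8, 24.9 and 24.0 CPM with CNO and 26.1, 26.7, 27.1 and 25.4 CPM with vehicle. All 4 CNO input libraries lay below all 4 vehicle input libraries for Terf2, as for 4.03% of the genes tested; its log2 change of -0.13 (SE 0.05, 95% interval -0.25 to -0.01) did not pass (limma, adjusted p = 0.437).

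Terf2ip (chr8:112011398-112020528, plus strand), whose product RAP1 rides on TRF2, had 86.1, 81.1, 81.3 and 79.9 CPM in CNO IP and 77.3, 87.2, 79.5 and 70.5 CPM in vehicle IP. In input it had 62.4, 64.3, 71.2 and 70.0 CPM with CNO and 66.9, 76.1, 61.7 and 62.9 CPM with vehicle. The groups overlapped in both. Its log2 change was 0.07 (SE 0.06) in IP and 0.00 in input (SE 0.08, 95% interval -0.16 to 0.17; limma, adjusted p = 0.993).

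Acd, whose product TPP1 links TIN2 to POT1, was the other member called after CNO in captured RNA. It had 21.4, 20.7, 20.8 and 20.2 CPM in CNO IP, against 10.1, 9.30, 10.1 and 9.87 CPM in vehicle IP. In CNO input it had 13.1, 12.2, 12.8 and 12.6 CPM, against 10.6, 12.5, 12.6 and 12.1 CPM in vehicle input. The input groups overlapped. The log2 change was 1.08 (SE 0.05) in IP, 2.11-fold, and 0.09 (SE 0.08, 95% interval -0.09 to 0.26; limma, adjusted p = 0.797) in input.

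The neighbourhood of Acd bears on how its count can be read. Acd lies at chr8:105695860-105701102 on the minus strand and overlaps Carmil2, listed in the files under its older symbol Rltpr, over 1208 exonic bases or 33.3% of its exon length. It stands head to head with Pard6a (chr8:105701148-105703496, plus strand), a gene for a cell polarity scaffold whose start lies 46 bases away in GENCODE; in RefSeq the Acd gene reaches 81 bases into Pard6a. Both neighbours were looked up after the values of Acd were seen. Pard6a averaged 53.9 CPM in CNO IP and 15.1 CPM in vehicle IP, a log2 change of 1.83 (SE 0.06), and 31.9 CPM in CNO input and 23.1 CPM in vehicle input, a log2 change of 0.47 (SE 0.07; limma, adjusted p = 0.00644). Rltpr averaged 4.40 CPM in CNO IP and 3.70 CPM in vehicle IP, with a log2 change of 0.26 (SE 0.15). Pard6a thus stood higher after CNO in both kinds of RNA; its part in the count of Acd was not tested.

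Pot1a (chr6:25743737-25809246, minus strand), whose product binds the single-stranded end and restrains the ATR kinase there, had 20.0, 19.1, 19.1 and 22.4 CPM in CNO IP and 22.6, 24.0, 21.5 and 21.5 CPM in vehicle IP. In input it had 20.7, 19.6, 18.4 and 19.9 CPM with CNO and 19.3, 22.2, 20.0 and 20.5 CPM with vehicle. The groups overlapped in both, with log2 changes of -0.16 (SE 0.07) in IP and -0.06 (SE 0.07, 95% interval -0.21 to 0.09; limma, adjusted p = 0.861) in input. Its paralog Pot1b, whose product limits trimming of the end, ranged over 4.94 to 6.14 CPM in CNO IP, 4.93 to 6.39 CPM in vehicle IP, 6.01 to 6.95 CPM in CNO input and 6.56 to 8.58 CPM in vehicle input. Its log2 changes after CNO were 0.07 (SE 0.11) in IP and -0.11 (SE 0.11; limma, adjusted p = 0.84) in input. Reads that fit both paralogs could have been split or dropped by the authors' counting.

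Across the 7 members, 2 were called in CNO IP against vehicle IP, Tinf2 and Acd, both higher, beside 17.3% of all genes tested and 10.2% called higher; Tinf2 had been chosen on this comparison. In input 1 of 7 was called, Tinf2, beside 0.998% of all genes. The median log2 change of the members was 0.01 in IP and -0.01 in input, beside -0.01 and -0.02 over all genes. The 95% intervals of the other 6 members in input lie between -0.28 (Terf1) and 0.26 (Acd), which bounds the changes these libraries could have missed.

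**Figure D3:**
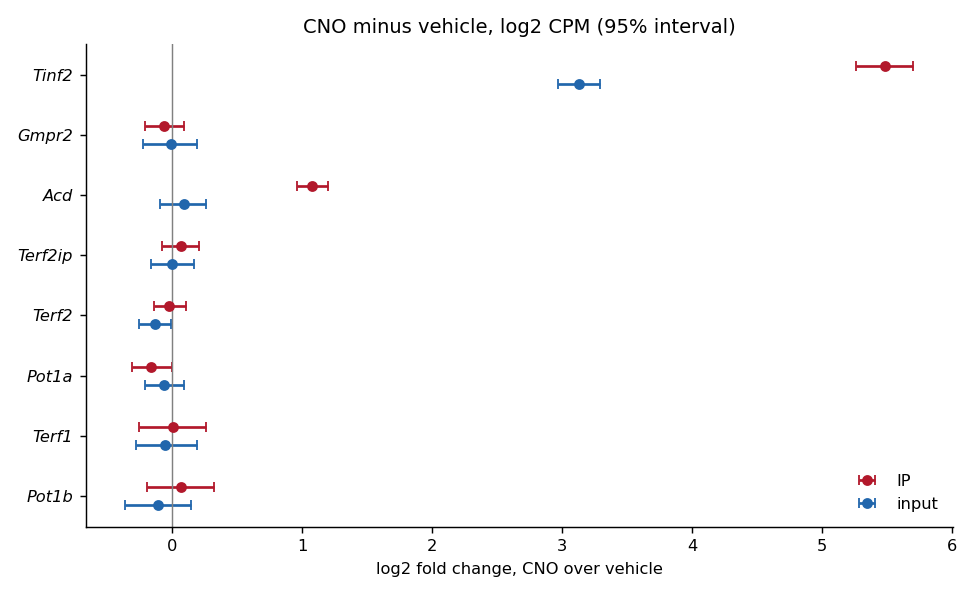
Log2 fold change of CNO over vehicle in IP (red) and in input (blue) for the 7 members and Pot1b, with 95% intervals from limma over 4 against 4 libraries. Tinf2 stands at 5.48 in IP and 3.13 in input, Acd at 1.08 in IP and 0.09 in input, and the other genes lie near 0 in both.

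The change of Tinf2 was larger in captured RNA than in input by 2.35 on the log2 scale (SE 0.12), and that of Acd by 0.99 (SE 0.09). Both are descriptions, because they hold the CNO IP libraries; 2 of 7 members passed in this interaction, beside 4.76% of all genes tested. Within single mice the ratio of IP to input for Tinf2 was 6.01, 5.62, 4.81 and 5.42 after CNO, against 1.08, 0.882, 1.13 and 1.22 after vehicle. For Acd the ratio was 1.64, 1.69, 1.63 and 1.61 after CNO, against 0.955, 0.743, 0.805 and 0.817 after vehicle. In every CNO mouse both genes were thus higher in the captured RNA than in the input of the same mouse. The interaction of the other 5 members lay between -0.10 (Pot1a) and 0.12 (Terf2).

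In vehicle mice Tinf2 was not detectably enriched in captured RNA. Its log2 ratio of IP to input was 0.10 (SE 0.10, 95% interval -0.13 to 0.33; limma, adjusted p = 0.397). Acd was lower in vehicle IP than in vehicle input by a log2 ratio of -0.28 (SE 0.08, limma, adjusted p = 0.00889), with 4 of 4 IP libraries below all input libraries, as for 34.4% of the genes tested. Terf2ip was higher, with a log2 ratio of 0.23 (SE 0.08, limma, adjusted p = 0.0267) and overlapping libraries. With upper quartile scaling, which moves the median log2 ratio of all genes by -0.15, the ratio of Terf2ip was 0.08 (adjusted p = 0.418); its adjusted p was 0.0542 to 0.0742 without vehicle input replicate 2, 4 or 5 or vehicle IP replicate 3 or 4. The remaining members had log2 ratios of 0.13 (Pot1a), 0.05 (Terf1), 0.03 (Terf2) and -0.10 (Gmpr2), with adjusted p of 0.0889, 0.724, 0.511 and 0.223 from limma. With the same scaling Gmpr2 (-0.26, adjusted p = 0.00729) and Terf2 (-0.12, adjusted p = 0.0396) were called lower, and the ratios of Tinf2 and Pot1a were -0.06 and -0.03.

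Thus 2 of 7 members were called between vehicle IP and vehicle input, beside 74.9% of all genes tested. Pot1b, outside the 7, was also lower in IP (log2 ratio -0.41, SE 0.12; limma, adjusted p = 0.0134). In CNO mice 3 of 7 were called, Tinf2 (2.45, SE 0.07), Acd (0.72, SE 0.06) and Terf2ip (0.29, SE 0.06), all higher in IP, beside 75.0% of all genes and 40.0% called higher; with the mouse as a replicate block the count was 5, Gmpr2 (-0.15) and Terf2 (0.15) being added. Upper quartile scaling moves the median log2 ratio of all genes by -0.21 here; Terf2ip was then not called (0.08), and Gmpr2 (-0.37) and Pot1a (-0.18) were called lower. These values for CNO mice hold the libraries that chose Tinf2 and are given as descriptions.

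Levels can be compared between genes per kilobase (kb) of annotated exon. On that scale the order in vehicle IP was Terf2ip with 15.9 ± 1.39, Terf2 with 5.86 ± 0.0581, Acd with 2.72 ± 0.109, Pot1a with 2.58 ± 0.134, Tinf2 with 2.38 ± 0.330, Terf1 with 1.26 ± 0.169 and Pot1b with 1.03 ± 0.125 CPM per kb. Acd, Pot1a and Tinf2 had overlapping libraries there, as did Terf1 and Pot1b, so the order within these sets is not settled. In CNO IP Tinf2 headed the order with 106 ± 6.90 CPM per kb, followed by Terf2ip with 16.6 ± 0.552, Terf2 with 5.81 ± 0.396 and Acd with 5.74 ± 0.135 CPM per kb. Terf2 and Acd had overlapping libraries there (5.32 to 6.20 and 5.58 to 5.91 CPM per kb). Vehicle input had the same leading pair as vehicle IP, Terf2ip with 13.5 ± 1.32 and Terf2 with 5.73 ± 0.165 CPM per kb, and CNO input was headed by Tinf2 with 19.4 ± 1.56 CPM per kb. The sources used here do not give the authors' gene annotation, so the exon lengths are those of GENCODE M21. They include exons shared with a gene on the other strand, 31.2% of the exon length of Tinf2 and 33.3% of that of Acd. How reads there were counted is not known.

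Summed over the 7 shelterin genes with Pot1b, Tinf2 made up 75.1 to 78.1% of the level per kb in CNO IP, 6.04 to 9.22% in vehicle IP, 39.5 to 43.5% in CNO input and 7.12 to 8.08% in vehicle input. The other 6 genes together held 31.9 to 33.9 CPM per kb in CNO IP, 27.7 to 31.3 in vehicle IP, 26.1 to 27.7 in CNO input and 26.3 to 29.6 in vehicle input. Most of the difference in the sum between CNO and vehicle was that of Tinf2. These sums were formed after the values were seen and carry no test; they are RNA levels, and protein was not measured.

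**Figure D4:**
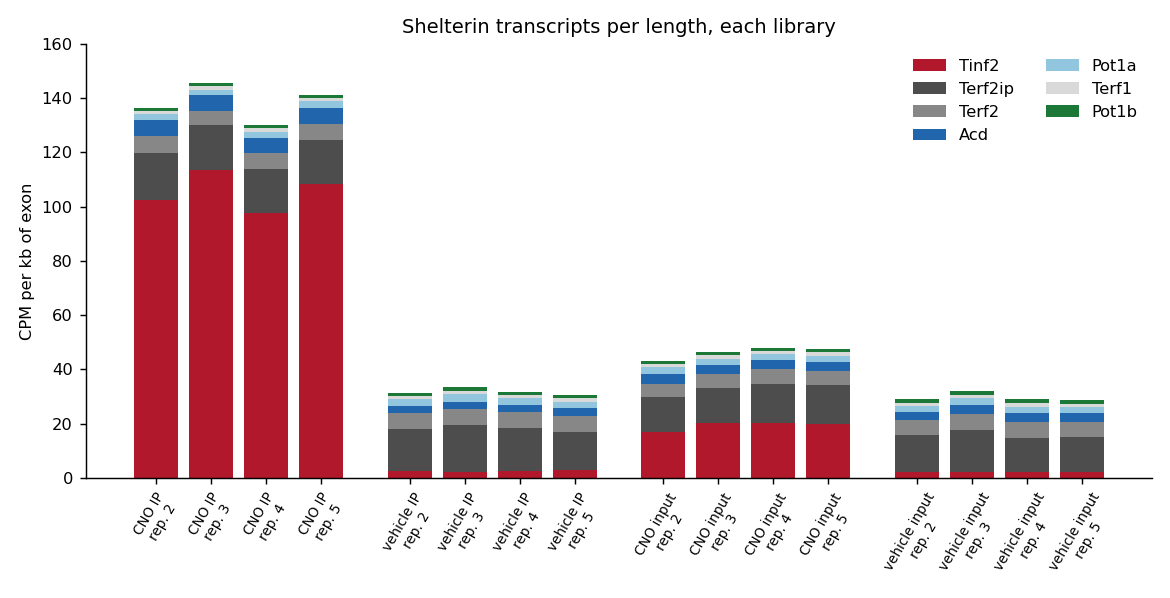
CPM per kb of exon of the 7 shelterin genes stacked for each of the 16 libraries, captured RNA (CNO IP, vehicle IP) left of tissue RNA (CNO input, vehicle input). The Tinf2 part is 75.1 to 78.1% of the stack in CNO IP and 39.5 to 43.5% in CNO input; the other 6 genes together reach 31.9 to 33.9 CPM per kb in CNO IP and 27.7 to 31.3 in vehicle IP.

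Most genes near Tinf2 were not called. Within 50 kb of its start 13 other genes are annotated and 8 were measured. In CNO IP against vehicle IP 2 of the 8 were called, both higher, beside the 17.3% of all genes, and in input 0 of 8, beside 0.998%. An unadjusted limma p under 0.05 was found for 4 of the 8 in IP and for 2 of the 8 in input. Over all genes, at least 4467 of 15602 tested in IP had such a p, and at least 1406 of 15825 tested in input. In input limma-voom on the recovered reads also called 0. Rabggta, a subunit of the enzyme that attaches lipid anchors to Rab proteins, averaged 55.1 CPM in CNO IP and 44.4 CPM in vehicle IP, a log2 change of 0.31 (SE 0.05); in input it had a log2 change of -0.06 (SE 0.07; limma, adjusted p = 0.845). The other called gene was Tgm1, a transglutaminase that cross-links proteins in skin, 32.1 kb from the Tinf2 start.

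Tgm1 varied widely between mice. It had 37.8, 52.9, 70.4 and 59.4 CPM in CNO IP, against 10.9, 3.17, 6.34 and 39.3 CPM in vehicle IP, and 3.61, 5.53, 8.24 and 7.80 CPM in CNO input, against 1.34, 0.578, 0.779 and 5.10 CPM in vehicle input. Vehicle replicate 5 was the high vehicle sample in both kinds of RNA and reached the CNO range. The log2 change was 2.48 (SE 0.67) in IP and 2.18 (SE 0.67; limma, adjusted p = 0.294) in input; without vehicle input replicate 5 it was 2.82 in input (adjusted p = 0.00544), and without that replicate 1 of the 8 neighbours was called in input. The IP call of Tgm1 was lost without 6 of the 8 IP libraries taken 1 at a time, without trend and robust settings (adjusted p = 0.0518) and with a replicate block (adjusted p = 0.0516), and the count of called neighbours in IP was then 1.

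The remaining 6 neighbours, Ipo4, Tm9sf1, Tssk4, Mdp1, Gmpr2 and Nedd8, were not called in either kind of RNA. With upper quartile scaling 5 of the 8 were called in IP, Tm9sf1 (-0.18), Mdp1 (-0.17) and Nedd8 (-0.15) then lower. In the wider window of 100 kb, 3 of 17 neighbours tested in IP were called and 0 of 16 in input. An unadjusted limma p under 0.05 was found there for 6 in IP and for 3 in input. Over all genes it was found for at least 4467 of 15602 in IP and at least 1406 of 15825 in input. The third gene called in IP was Nop9, a ribosome assembly factor gene. Its log2 change was 1.43 (SE 0.11) in IP and 0.40 (SE 0.12, limma, adjusted p = 0.229) in input. Nop9 shares 1136 exonic bases with Cideb on the other strand.

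**Figure D5:**
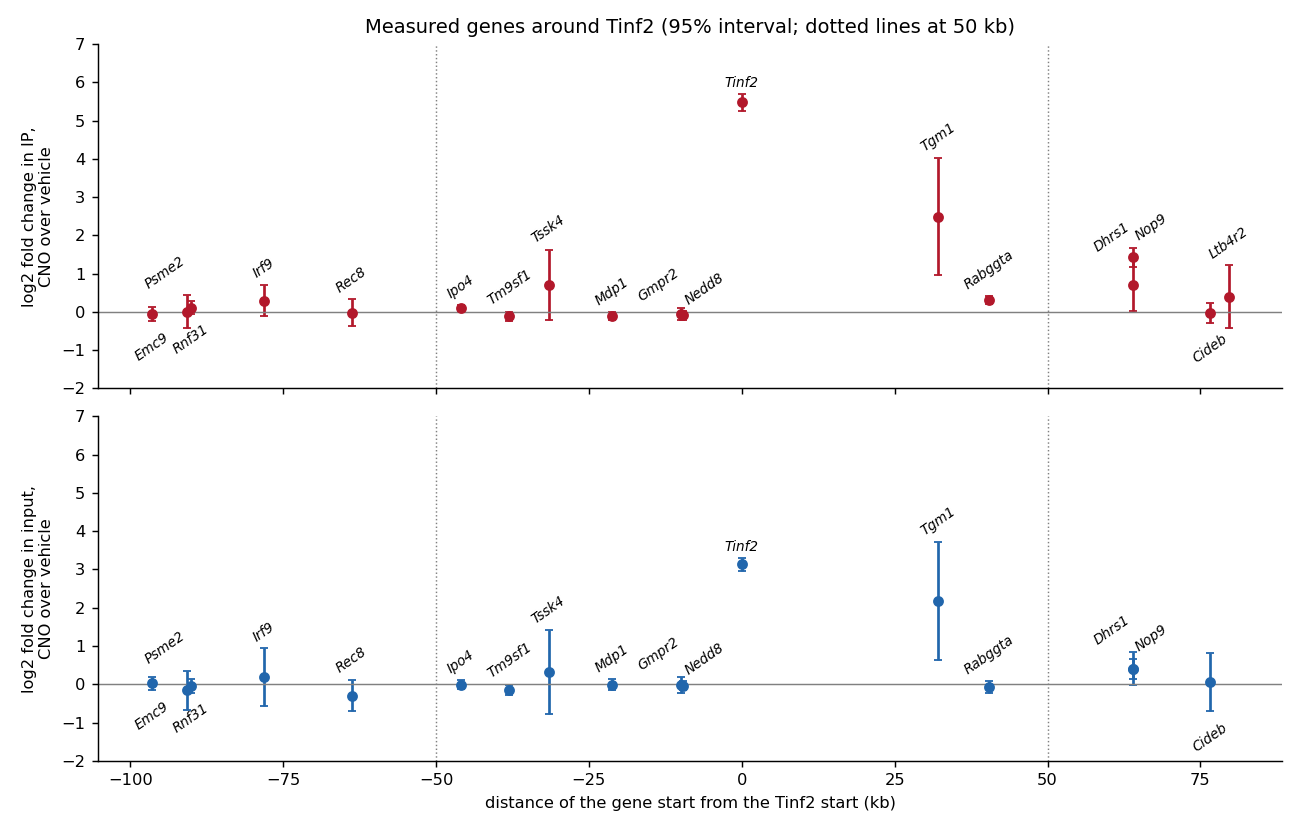
Log2 fold change of CNO over vehicle in IP (top) and in input (bottom) for Tinf2 and the measured genes whose start lies within 100 kb, against distance from the Tinf2 start in kb, with 95% intervals. Tinf2 stands at 5.48 and 3.13, Tgm1 at 2.48 and 2.18 with wide intervals, and Tssk4 at 0.71 and 0.31, also with wide intervals.

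Other genes of telomere upkeep were counted in 4 lists. In input 0 of 7 genes of the CST complex and its polymerase, 0 of 15 telomerase genes, 0 of 27 shelterin partners and 0 of 12 damage kinases and sensors were called by limma, beside 0.998% of all genes. Their counts at an unadjusted p under 0.05 were 0, 0, 2 and 1, beside at least 1406 of the 15825 genes tested in input. With limma-voom 0 were called in each list. In CNO IP against vehicle IP the calls were 1 of 7, 1 of 14, 7 of 27 and 1 of 12, beside 17.3%, and the median log2 changes were -0.10, -0.01, 0.04 and 0.00, beside -0.01 over all genes. The count of partners called was 3 or 4 when replicate 2 or 4 of CNO IP, or of vehicle IP, was left out. That of telomerase genes was 0 without 7 of the 8 IP libraries taken 1 at a time, 0 with a replicate block and 0 with no filter. It was 2 without vehicle IP replicate 3, with upper quartile scaling and with one fit over all 16 libraries.

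The named calls in IP were mostly small. Pola2, a subunit of DNA polymerase alpha, fell (log2 change -0.39, SE 0.08) and Naf1, an assembly factor of telomerase RNA, rose (0.18, SE 0.05). Naf1 is the telomerase gene whose call is lost in the settings with a count of 0. Of the partners 4 rose and 3 fell, beside 10.2% and 7.08% of all genes, led by Fbxo4 (0.42, SE 0.06), which targets TRF1 for degradation, Gnl3 (0.34, SE 0.08), a nucleolar binder of TRF1, Rad50 (-0.31, SE 0.06), of the break-sensing MRN complex, and Tnks1bp1 (0.27, SE 0.06), a tankyrase binding protein. Gnl3 shares 15 exonic bases with Pbrm1. The exception in size was Chek1, the checkpoint kinase downstream of ATR, with 6.32, 6.79, 6.59 and 4.96 CPM in CNO IP, against 1.24, 1.50, 1.06 and 1.11 CPM in vehicle IP. Its log2 change was 2.33 (SE 0.15) in IP and 0.68 (SE 0.26) in input, where it was not called.

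Between vehicle IP and vehicle input the telomere genes were split. Calls were 2 higher and 3 lower of 7 CST genes, 6 higher and 5 lower of 15 telomerase genes, 16 higher and 4 lower of 27 partners and 5 higher and 2 lower of 12 damage genes, beside 37.7% higher and 37.2% lower over all genes. Terc, the RNA template of telomerase, had the lowest ratio, with 0.0705 CPM in vehicle IP and 2.92 CPM in vehicle input (log2 ratio -5.46, SE 0.35). It had too few reads in captured RNA to be tested between CNO IP and vehicle IP, so the size of this ratio is uncertain. Further named calls were Pinx1 (-1.30), a telomerase inhibitor, and Nop10 (-1.16), a protein of the telomerase particle, both lower, and Tep1 (1.14), a telomerase-associated protein, higher. Of the partners Tnks1bp1 (1.01), the tankyrase Tnks (0.87), the TRF1 kinase Nek7 (0.76) and Rif1 (0.73), which guards breaks from trimming, were higher. Of the damage genes the histone gene H2afx (-0.99) was lower, and the kinase gene Atm (0.63), the adaptor Mdc1 (0.55) and the ligase Lig4 (0.46) were higher. Among the CST genes reported here Pola1 (-0.25) was lower, and Ctc1 (0.36) and Prim2 (0.33) were higher.

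The genes whose log2 CPM followed Tinf2 most closely over all 16 libraries were Il11, a cytokine of the interleukin 6 family (Pearson r = 0.992), the small Maf factor Maff (0.990), Emd, which encodes emerin of the nuclear envelope (0.982), the stress-response factor Atf3 (0.982) and the early response gene Ier3 (0.980). These points share 4 groups, and the coefficients follow mostly the distance between groups. Il11 averaged 72.5 CPM in CNO IP, 0.381 CPM in vehicle IP and 12.4 CPM in CNO input, and Emd averaged 354 CPM in CNO IP, 32.4 CPM in vehicle IP and 76.5 CPM in CNO input. Over the 8 input libraries alone the closest were Pmvk, an enzyme of the mevalonate pathway (0.999), the matrix protein gene Cyr61 (0.997), Ifrd1, a transcriptional co-regulator (0.997), Emd (0.997) and the signalling gene Irak2 (0.995). By Spearman's coefficient 1 of the 5 stayed among the closest 5 in each set. Of these 9 genes 8 had a start window. The full cAMP response element was found in 1, Maff, beside 1.79% of all windows, and its core in 3, beside 20.8%. These shares count windows, and a gene can have more than 1.

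Markers of other cells in the same comparisons were as follows. In CNO IP against vehicle IP 2 of 10 astrocyte markers and 1 of 4 mural markers were called, all lower, beside 17.3% of all genes called and 7.08% called lower, and none of the interneuron, neuron, microglia, oligodendrocyte, endothelial or ependymal markers. Summed astrocyte markers ranged over 31800 to 35200 CPM in CNO IP and 30500 to 37000 CPM in vehicle IP, and over 3320 to 4210 CPM in CNO input and 3300 to 3600 CPM in vehicle input. The 4 mural markers summed to 44.7 to 53.8 CPM in CNO IP and 74.6 to 98.7 CPM in vehicle IP, and the 4 ependymal markers to 146 to 177 CPM in CNO IP and 173 to 242 CPM in vehicle IP. In CNO input against vehicle input 1 of 6 endothelial and 1 of 4 mural markers were called, both lower, beside 0.998% of all genes called, with endothelial sums of 76.4 to 90.5 CPM in CNO input and 98.3 to 111 CPM in vehicle input, and mural sums of 88.1 to 102 CPM in CNO input and 108 to 119 CPM in vehicle input. Astrocyte sums overlapped between CNO and vehicle in both kinds of RNA, and ependymal sums overlapped in IP. Mural sums in both kinds of RNA and endothelial sums in input were lower in every CNO library than in every vehicle library. The part of these cells in the values of Tinf2 was not tested.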

How the data were processed

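The values deposited by the authors are log2 CPM for 17098 gene lines in each of 16 libraries. The submitters' processing notes name bcl2fastq 2.17, STAR, HTSeq, limma and the mouse build mm10. The sources used here give neither strand setting nor annotation. Per the labels' protocols, libraries were paired-end (Nugen Ovation kit). Each value solved to a whole read number, within 0.01 read, for 100% of values, with a prior count of 0.25. An identical duplicate line was dropped, and 2 lines that share a symbol were tested but are not named.

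Comparisons used limma 3.58.1 (R 4.3.3) and the log2 values (eBayes with trend and robust settings), fitted on the groups compared only, with Benjamini-Hochberg adjustment over all genes tested. A gene was tested if at least 4 libraries had a CPM worth 10 reads in the median library and its reads totalled 15 or more. All 7 members passed in every comparison. Fold changes are on the log2 CPM scale. The limma procedure was also run on simulated data, and the outcome is not reported here. Libraries of the same mouse deviated together (r = 0.18 to 0.546 over 16256 genes), so mouse codes pair IP with input. The main fits of IP against input and of the interaction held no mouse term. Their SE and adjusted p thus treat the libraries of a mouse as independent. With the mouse as a replicate block the interaction called 1240 genes, beside 773, and 2 members, as without it. Named genes were the 7 members, up to 4 called genes per telomere list and comparison by size of change, the 5 genes most like Tinf2 in each set of libraries and the called neighbours within 50 kb; Pot1b is in the shelterin list. A gene that this rule would name in the CST list is not reported here. Exon lengths and positions are from GENCODE M21, sequences from RefSeq on GRCm38.p6. The members and lists were chosen with earlier results of these data known.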

Additional observations from a re-analysis of the deposited data

Results flagged for a closer look

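The change after CNO was larger in captured than in tissue RNA for Tinf2 (2.35 on the log2 scale, SE 0.12), for Acd (0.99, SE 0.09) and for the neighbour Rabggta (0.37). All of these values hold the libraries that chose Tinf2 and are given as descriptions. In the same interaction 4.76% of all genes tested were called.

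In CNO input, replicate 2 stood apart from the other 3 libraries for Tinf2, at 84.2 CPM against 98.6 to 100 CPM, and replicate 4 stood apart for Pot1b, at 6.01 CPM against 6.79 to 6.95 CPM. Of 60 groups looked at over 15 genes, 2 had such a library, and chance gives about 1 in 20.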

How the results depend on the processing

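Over the 5 comparisons 587 of 609 recomputed values of the 7 members were counted as the same. A called value counted when it stayed called in the same direction. An uncalled value counted when it stayed uncalled and moved by less than a margin set from its SE. Uncalled values near 0 could thus change sign, as for Terf1 in IP (-0.05 to 0.09). Among called values 0 changed sign, and the log2 change of Tinf2 stayed within 5.36 to 5.56 in IP and 3.02 to 3.19 in input. Members called between vehicle IP and vehicle input ranged over 1 to 3 without single libraries, beside 2. With the mouse as a replicate block, 5 members were called between CNO IP and CNO input, beside 3. Replicate numbers did not pair CNO with vehicle mice (r = -0.168 to 0.178 in IP and -0.315 to 0.0285 in input); with the number as a replicate block 2 members were called in IP and 1 in input, as without it, while genes called lower went to 717 in IP, beside 1104, and to 7 in input, beside 29. Upper quartile scaling gave 1946 genes lower in IP and moved the share of calls that were higher to 39.3%, beside 59.2%; between IP and input it gave 40.8%, beside 50.3%, in vehicle mice and 40.3%, beside 53.3%, in CNO mice, and in the interaction 73.2%, beside 88.0%. Without single libraries, genes lower ranged from 596 in IP and from 4 in input, and 85 genes were higher in input without CNO input replicate 5, beside 129. One fit over 16 libraries gave 105 genes lower in input. In the interaction 199 genes were lower with upper quartile scaling and 222 with the replicate block, beside 93. The causes were not tested. The lowest shelterin genes, Terf1 and Pot1b, rest on 187 to 375 reads per library, which limits the size of change that could be seen.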
